A study of Mus musculus with 28 samples.

Results

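The genes described here are 9 complement genes of the mouse, C1qa, C1qb, C1qc, C1ra, C2, C3, C4b, Cfb and Serping1, out of 41605 gene identifiers in the count table. They were chosen by name with earlier results of these counts known, because their levels moved along the timeline. The values that chose them are the levels in CPM (read counts scaled to a common library size by the trimmed mean of M-values) in all 28 libraries, so their levels and the differences between stages are given as a description, without a test. A difference is called at an adjusted p under 0.05, taken over every gene tested, and a size of at least 2-fold, and for these 9 genes the calls are only counted.

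Complement is a cascade of secreted proteins that tag and lyse cells and recruit phagocytes. In the classical pathway the recognition molecule C1q carries the proteases C1r and C1s, which cut C4 and C2, and the resulting enzyme cuts C3. In the alternative pathway factor B (Cfb) and factor D (Cfd) build the C3-cutting enzyme, and the C1 inhibitor (Serping1) and a set of membrane and fluid-phase regulators hold the cascade back. In the nervous system, C1q is known as a product of macrophages and microglia, and the liver is the main source of most plasma complement proteins.

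The study followed the maturation of peripheral nerves of wild-type C57BL/6J mice by bulk poly-A RNA sequencing at the embryonic stages labelled E13 and E17, in pups at postnatal days 1, 5, 14 and 24 (P1 to P24) and in young adults (P60), with 4 libraries at each stage. The embryonic labels are rounded down to the whole day. Each stage held libraries of both sexes in equal number, and the labels used here do not give the sex of a library, so sex was not in the fit. At E13 each library came from various nerves of 2 embryos and was not stripped, at E17 from the sciatic nerves of 2 embryos, and from P1 on from the sciatic nerves of 1 mouse. From E17 on the epineurium and perineurium were stripped by hand, and the mice were not perfused. Differences between E17 and E13 therefore carry age, nerve and dissection together, which cannot be told apart.

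Total counts ranged from 13899895 to 37662780 per library. The summed level of 6 Schwann cell markers went from 264 to 499 CPM over the E13 libraries and from 28167 to 37852 CPM over those of P60, so the labelled tissue carried its defining transcripts. Markers of other cells were present too, with 12 macrophage markers summing to 328 to 482 CPM and 3 perineurial markers to 989 to 1387 CPM at P60. The paper also reports Slc2a1, a gene of the perineurial list, in an endothelial cluster, so this sum is not of the perineurium alone. The 6 hepatocyte markers, Alb among them, summed to 0.502 to 0.658 CPM at P60 and to at most 2.68 CPM in any library. In bulk tissue, fewer cells of a type and less RNA per cell cannot be told apart.

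C1qa, C1qb and C1qc encode the A, B and C chains of C1q. The 3 genes lie side by side on the minus strand of chromosome 4 (GENCODE M21 on GRCm38), C1qa at chr4:136895917-136898803, C1qb at chr4:136880129-136886187 and C1qc at chr4:136889804-136893065. No 100-base word of their longest transcripts occurred in a transcript of another gene.

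C1qa measured 10.5, 36.5, 28.9 and 51.9 CPM in the 4 libraries of E13 and 10.7, 11.5, 10.4 and 11.4 CPM at E17. It measured 8.60, 13.9, 17.5 and 16.2 CPM at P1 and 28, 27.4, 29.7 and 21.7 CPM at P5. At P60 the values were 36.0, 37.2, 25.1 and 34.5 CPM. The E13 libraries spread over a wide range and overlapped with the E17 libraries, whereas all P5 and P60 libraries lay above all P1 libraries.

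The stage means of C1qa were 31.9 ± 17.2 CPM at E13 (SD, n = 4), 11 ± 0.541 at E17 and 14 ± 3.91 at P1, followed by 26.7 ± 3.46 at P5, 28.2 ± 4.69 at P14, then 38.6 ± 11.9 at P24 and 33.2 ± 5.49 at P60. C1qb ran from 56.1 ± 28.5 CPM at E13 through 18.9 ± 1.19 at E17 and 18.7 ± 3.06 at P1 to 33.6 ± 4.77 at P5 and 35.7 ± 6.58 at P60. C1qc ran from 34.4 ± 19.2 CPM at E13 through 9.34 ± 0.937 at E17 and 12 ± 3.41 at P1 to 23.5 ± 2.65 at P5 and 29.5 ± 6.36 at P60. All 3 chains thus had their lowest levels around birth and a span of 2.99-fold to 3.69-fold between the highest and the lowest stage mean, small beside that of the other members.

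The ratio of C1qc to C1qa was 1.08 ± 0.0547 at E13 and between 0.848 and 0.896 at the later stages on average. The ratio of C1qb to C1qa was 1.78 ± 0.137 at E13, 1.26 ± 0.0342 at P5 and 1.07 ± 0.0659 at P60, so the excess of C1qb reads over C1qa reads was smaller in the adult nerve.

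The sum of 12 macrophage markers (Csf1r, Adgre1, Lyz2, Mrc1 and others) was lowest at the same stages as C1q. It was 464 to 616 CPM at E13, 164 to 185 at E17, 149 to 178 at P1 and 313 to 345 at P5, and 11 of 12 were called lower at E17 than at E13, where 21.2% of all genes were. From P1 to P5, 3 of 12 were called higher (4.05% of all genes) and 9 were not called. The C1q sum was 0.222 ± 0.0177 of the macrophage marker sum at E17, 0.278 ± 0.0679 at P1 and 0.252 ± 0.0232 at P5. It was 0.322 ± 0.038 at P14, 0.303 ± 0.0389 at P24 and 0.244 ± 0.0324 at P60, with all P14 libraries above all P5 libraries. The part of macrophage number in the C1q levels was not tested. Within E13 the ratio ranged from 0.0896 in library 1 to 0.343 in library 4, the same libraries that were lowest and highest in each chain.

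The spread of C1q at E13 went along with the GC content of transcripts and with red cell markers. In E13 library 1 the C1q chains were at -1.84 to -1.77 on the log2 scale against the other 3 libraries, and in library 4 at 1.14 to 1.28. Across 17666 genes the same deviation had a Spearman correlation with transcript GC content of -0.77 in E13 library 1, 0.66 in E13 library 4 and -0.64 in P1 library 1, and of -0.42 to 0.49 in the other 25 libraries. These are correlations across genes of a library, which are not independent. The longest transcripts of C1qa, C1qb and C1qc have a GC content of 59.5%, 57.4% and 57.5%, above that of 94.7%, 88.4% and 89% of the genes, whose median is 49.5%. The 5 red cell markers had a median deviation of -1.52 in E13 library 1 and 2.52 in library 4, with summed levels of 593 and 5656 CPM in these and 1130 and 1247 CPM in libraries 2 and 3. The part of GC content and of blood in the E13 values of C1q was not tested.

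**Figure D1:**
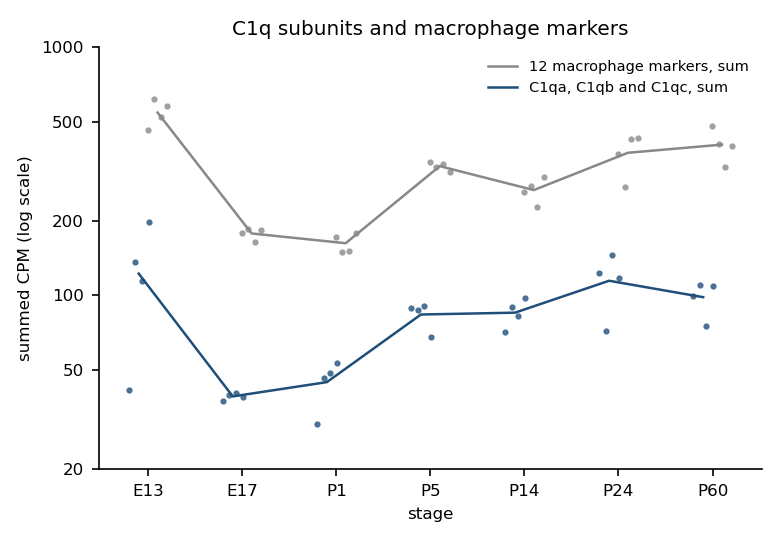
The plot gives the summed CPM of C1qa, C1qb and C1qc (blue) and of 12 macrophage markers (grey) on a log axis against stage. Points are single libraries and lines join the means of 4, and both sums are lowest at E17 and P1, with the C1q sum at 37.4 to 40.6 CPM at E17.

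C1ra encodes the protease C1r, which starts the classical cascade once C1q has bound. It was at 0.629, 0.444, 0.325 and 0.474 CPM at E13, at 6.67, 6.79, 8.24 and 6.48 CPM at P1 and at 61.7, 55.1, 54.0 and 54.3 CPM at P60. Its stage means of 0.468 ± 0.125, 2.35 ± 0.419, 7.05 ± 0.806, 15.7 ± 1.46, 32.6 ± 2.91, 45.0 ± 9.54 and 56.3 ± 3.64 CPM rose in order from E13 to P60, a span of 120-fold. The libraries of neighbouring stages did not overlap up to P14, while those of P24 overlapped with P14 and with P60.

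C1ra (chr6:124512405-124523443, plus strand) has a near copy, C1rb, with 97.9% identity over the 2121 coding bases, and 35.9% of the 100-base words of C1ra occur in other genes, nearly all in C1rb. C1rb had at most 2 counts in any library. How the counting treated reads that fit both genes is not given in the sources used here. The C1ra level and the ratios that use it are therefore uncertain. The coding window of 60 bases in which the copies differ most is shown because reads can be assigned to C1ra in such stretches. Capitals mark the 11 bases that differ between them, and positions 1798 to 1857 count from the start of the C1ra coding sequence (GENCODE M21).
C1ra: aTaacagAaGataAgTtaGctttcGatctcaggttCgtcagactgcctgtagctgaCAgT
C1rb: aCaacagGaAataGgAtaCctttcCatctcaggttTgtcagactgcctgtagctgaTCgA

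C1s1, the partner protease of C1r and not a member, rose too. Its stage means were 1.41 CPM at E13, 26.1 at E17 and 45.0 at P1, followed by 94.7 at P5 and 248 at P60, and it was called higher at E17 than at E13 (log2 4.17 ± 0.27, edgeR adjusted p = 2.9e-13), at P5 than at P1 (log2 1.07 ± 0.21, edgeR adjusted p = 0.00063) and at P60 than at P1 (log2 2.46 ± 0.22, edgeR adjusted p = 2.7e-10). The ratio of C1s1 to C1ra was 3.22 ± 1.69 at E13 and 11.4 ± 3.24 at E17, then 6.41 ± 0.779 at P1 and 4.37 ± 0.768 at P60, in raw CPM.

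Serping1 (chr2:84765387-84775444, minus strand) encodes the C1 inhibitor, which removes active C1r and C1s from C1q. It had 26.9, 32.5, 35.0 and 41.5 CPM at E13, 71.7, 64.6, 98.2 and 82.7 CPM at P1, and 789, 460, 576 and 633 CPM at P60. All P60 libraries lay several-fold above all P1 libraries, and per kilobase of exon it was already at E13 the most abundant member outside C1q. Stage means were 34.0 ± 6.04 CPM at E13, 68 ± 13 at E17 and 79.3 ± 14.6 at P1, followed by 115 ± 11.7 at P5, 286 ± 43.1 at P14, then 471 ± 156 at P24 and 614 ± 137 at P60. Relative to the sum of the proteases it inhibits, C1ra plus C1s1, the Serping1 level was 21 ± 12.6 at E13, where both proteases were low, 2.40 ± 0.297 at E17, 1.04 ± 0.0908 at P5 and 2.01 ± 0.104 at P60, in raw CPM not corrected for length.

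**Figure D2:**
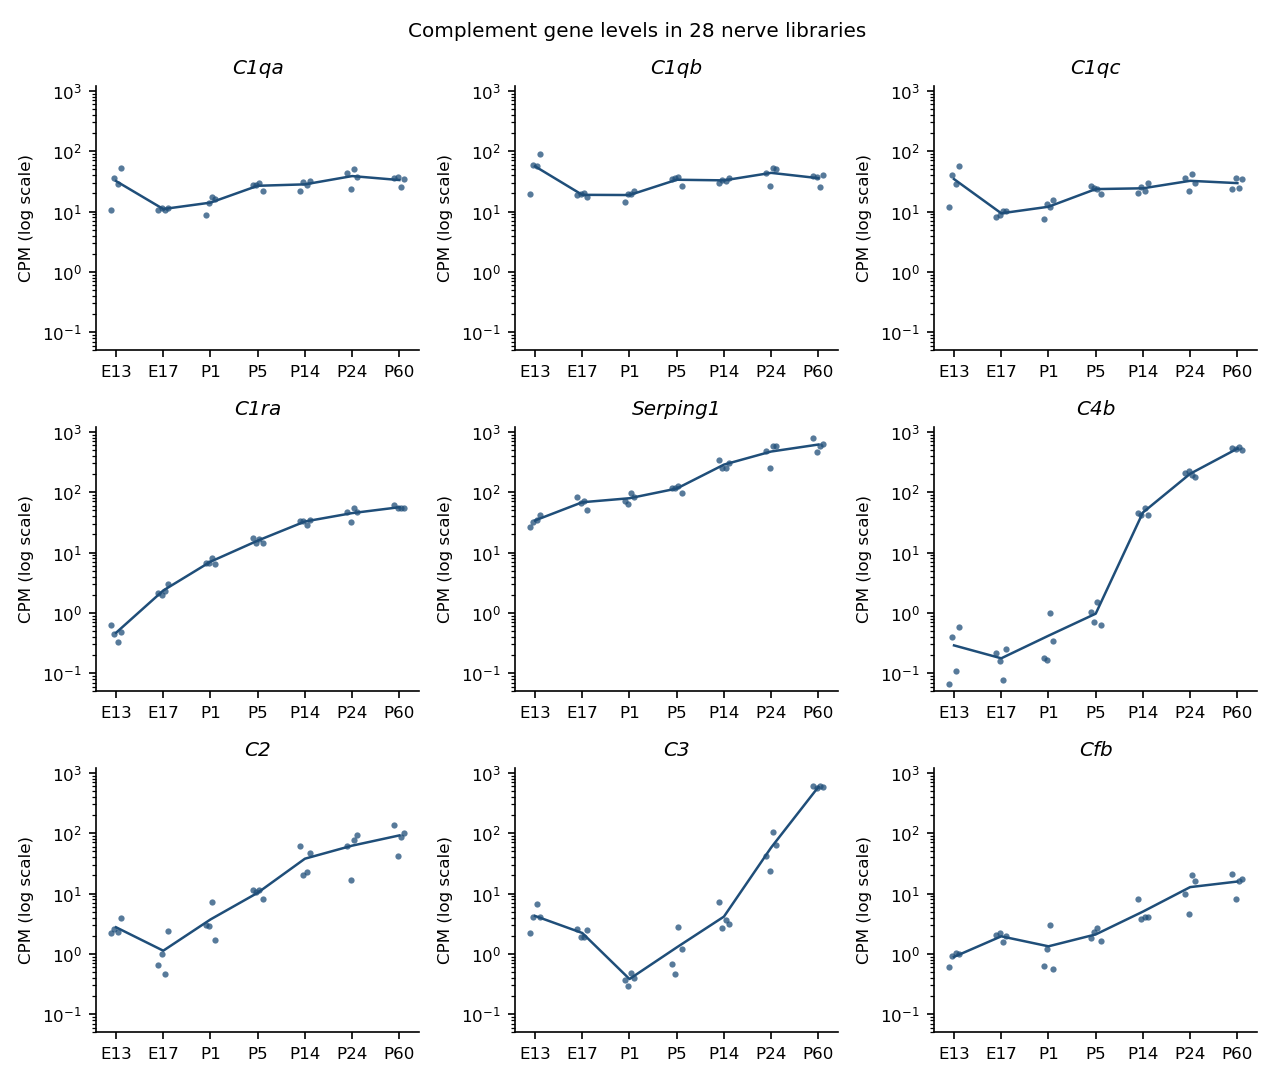
Each panel gives the CPM of a member on a log axis against stage, with points for the 4 libraries and a line through the means. The C1q chains change little after P5, C1ra and Serping1 climb over the whole timeline, C4b climbs steeply between P5 and P14, and C3 climbs steeply from P14 to 582 CPM at P60 after its lowest level at P1.

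C4b encodes complement C4, the substrate of C1s, whose large fragment attaches to target surfaces. Its counts were close to the floor in the youngest nerves, with 0.0662, 0.404, 0.108 and 0.579 CPM at E13 and 4, 3, 2 and 4 reads at E17. At P5 it was at 1.04, 0.716, 1.5 and 0.624 CPM, and at P14 at 45.2, 41.5, 55.4 and 42.2 CPM. At P60 the libraries held 537, 519, 557 and 490 CPM. No library from P14 on overlapped with any library up to P5, and the step from P5 to P14 was 5.60 ± 0.31 on the log2 scale, followed by 2.13 ± 0.24 from P14 to P24 and another 1.38 ± 0.24 up to P60. Libraries within P14, P24 and P60 were close, with means of 46.1 ± 6.42, 202 ± 21.2 and 526 ± 28.5 CPM.

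C4b (chr17:34728380-34743882, minus strand) has a copy in C4a. Over the 5214 coding bases of C4b the aligned C4a transcript was identical at 96% of columns, and 16.5% of the 100-base words of C4b also occur in C4a. The window of 60 coding bases with the most differences is given to show what separates their reads. Capitals mark the 13 bases that differ, at positions 2705 to 2764 of the C4b coding sequence.
C4b: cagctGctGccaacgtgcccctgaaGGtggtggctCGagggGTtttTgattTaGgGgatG
C4a: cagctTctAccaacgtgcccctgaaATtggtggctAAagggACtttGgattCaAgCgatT

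C4a did not take the course of C4b. Its mean was 0.784 ± 0.249 CPM at E13, 0.711 ± 0.231 at P1, 0.784 ± 0.163 at P14 and 1.14 ± 0.141 at P60, and its log2 difference between P60 and P1 was 0.68 ± 0.34 (edgeR adjusted p = 0.087). The ratio of C4b to C4a was 0.386 ± 0.371 at E13, 1.41 ± 0.632 at P5, 62.4 ± 23.9 at P14 and 466 ± 56.4 at P60. How the authors' counting treated reads that fit both genes is not given in the sources used here, so the small C4a level is uncertain, as is the C4b level at E13 and E17, where C4a had more reads in every library.

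C2 encodes the protease that joins C4 in the classical C3-cutting enzyme. It measured 2.22, 2.54, 2.27 and 4.00 CPM at E13, 0.660, 1.00, 0.466 and 2.39 CPM at E17, and 3.06, 2.92, 7.22 and 1.68 CPM at P1. It then measured 61.6, 20.4, 22.9 and 46.1 CPM at P14 and 137, 42.0, 86.7 and 102 CPM at P60. All P5 libraries were above all P1 libraries and all P14 libraries above all P5 libraries, but within a stage the highest library was 3.02-fold above the lowest at P14, 5.55-fold at P24 and 3.25-fold at P60.

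The C2 and Cfb counts each come in part from exons shared with another annotated gene. The genes lie next to each other on the minus strand of chromosome 17, C2 at chr17:34862604-34898265 and Cfb at chr17:34856374-34862518, and the annotation holds a protein-coding read-through gene, Gm20547, that covers 42.8% of the exon length of C2 and 79.5% of that of Cfb on the same strand. Gm20547 collected 14486 reads in all, against 15804 for C2 and 3049 for Cfb, and its CPM ran along with C2, from 3.68 ± 2.85 at P1 to 81.5 ± 33.6 at P60. How the counting assigned reads in the shared exons is not given in the sources used here, so the levels of C2 and above all of Cfb are uncertain. In E17 library 1, Gm20547 had 43 reads beside 12 for C2 and 37 for Cfb. In P60 library 1, Gm20547 had 1630 reads beside 1868 for C2 and 290 for Cfb. Whether a shared read was counted for each gene it fits was not tested. The sum over C2, Cfb and Gm20547 was 8.73 ± 6.35 CPM at P1, 21.9 ± 3.27 at P5, 75.1 ± 36.3 at P14 and 189 ± 78.2 at P60. If shared reads were counted for each gene, this sum holds them repeatedly, so it is not read as a level of the locus.

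**Figure D3:**
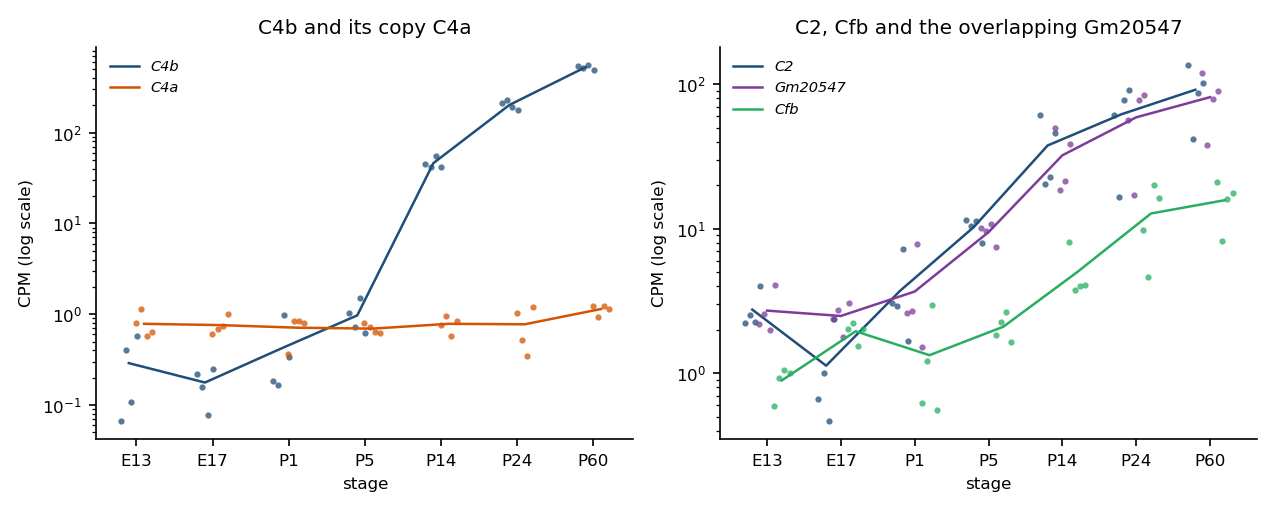
The left panel gives the CPM of C4b and its copy C4a, and the right panel that of C2, Cfb and the overlapping Gm20547, on log axes against stage with points for libraries and lines for means of 4. C4a stays near 1 CPM while C4b passes 500, and Gm20547 follows C2 except at E17, where C2 is at 0.420 ± 0.241 of its level. At E17 the mean of Cfb is above that of C2.

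C3 (chr17:57203970-57228136, minus strand) is the central component, where the pathways meet, and its large fragment tags surfaces for phagocytes. Its libraries held 2.25, 4.04, 6.61 and 4.10 CPM at E13, 2.58, 1.90, 1.94 and 2.45 at E17, and 0.364, 0.292, 0.474 and 0.403 at P1. They then held 0.667, 0.458, 2.78 and 1.21 CPM at P5, 7.21, 2.66, 3.63 and 3.08 at P14, 41.5, 23.5, 103 and 62.7 at P24, and 595, 568, 596 and 572 at P60. C3 was thus the member with a clear low point after E17, all P1 libraries being below all E17 libraries, and its P60 libraries were close to each other (a highest-to-lowest ratio of 1.05) after a stage, P24, in which that ratio was 4.39.

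From P1 to P60 the C3 level went from 0.383 ± 0.0762 to 582 ± 15 CPM, or 10.54 ± 0.56 on the log2 scale, and most of that change came after P14, with 3.81 ± 0.41 from P14 to P24 and another 3.33 ± 0.38 up to P60. C4b changed by a similar amount over the same interval, 10.26 ± 0.37, but took its largest step earlier. The ratio of C3 to C4b was 1.27 ± 0.728 at P5, then 0.0905 ± 0.0461 at P14 and 0.298 ± 0.190 at P24, and was 1.11 ± 0.0409 at P60.

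RefSeq start sites on GRCm38.p6 were at hand for 4 of the 9 members, C1qb, C1qc, C1ra and C3. The 250 bases before the start are shown for C3, whose level differed by 10.54 on the log2 scale between P60 and P1, and for C1qb, a chain of the C1q trio that moved together. Capitals mark matches, on either strand, to letters known from the sites of PU.1 (GAGGAA), STAT factors (TTCNNNGAA), interferon-stimulated elements (GAAANNGAA) and C/EBP factors (TTGCNNAA). The C3 window is chr17:57228137-57228386 and the C1qb window chr4:136886201-136886450, both on the minus strand.
C3: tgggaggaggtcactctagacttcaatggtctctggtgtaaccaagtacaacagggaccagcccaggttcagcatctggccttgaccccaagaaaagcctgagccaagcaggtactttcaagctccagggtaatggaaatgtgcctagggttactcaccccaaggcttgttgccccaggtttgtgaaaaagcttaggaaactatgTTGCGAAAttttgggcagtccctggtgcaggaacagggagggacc
C1qb: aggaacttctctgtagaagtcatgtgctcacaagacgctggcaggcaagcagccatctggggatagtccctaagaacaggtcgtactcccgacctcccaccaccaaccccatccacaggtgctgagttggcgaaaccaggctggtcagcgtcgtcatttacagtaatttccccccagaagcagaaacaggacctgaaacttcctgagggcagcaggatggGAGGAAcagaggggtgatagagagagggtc

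The C3 window held 1 match to the C/EBP letters, beginning at position -45 from the start, letters that 9.56% of 32851 promoter windows of this length hold. The C1qb window held 1 match to the PU.1 letters at position -30 and the C1qc window 1 on the opposite strand at position -193 from the RefSeq start, letters that 23.3% of windows hold. None of the 4 motifs matched in the window of C1ra, and the STAT letters (7.02% of windows) and the interferon letters (7.13%) matched in none of the 4 windows. The windows of C1ra (chr6:124512371-124512620) and C1qc (chr4:136892915-136893164) lie in large part inside the GENCODE M21 genes, which start upstream of the RefSeq starts. These windows therefore do not cover the bases before the GENCODE starts.

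Cfb encodes factor B, the alternative pathway's counterpart of C2. Its values were 0.596, 0.929, 1.05 and 1.00 CPM at E13, 0.620, 1.21, 2.95 and 0.558 at P1, and 21.2, 8.20, 16.0 and 17.7 at P60. All P60 libraries were above all P1 libraries, but the highest P1 library was itself 5.29-fold above the lowest. Stage means were 0.893 ± 0.204, 1.95 ± 0.284, 1.33 ± 1.12, 2.10 ± 0.448, 5.02 ± 2.08, 12.8 ± 6.89 and 15.8 ± 5.49 CPM in the order of the stages. By stage mean, Cfb was the member with the lowest level per length at P24 and P60, a place held by C4b up to P5 and by C3 at P14. The libraries of the lowest member overlapped with those of the next at P1, P5, P14 and P24. The Cfb level per length carries the uncertainty of its shared exons.

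Per kilobase of exon, the order of the members turned over along the timeline. At E13 C1qb led with 51.6 ± 26.2 CPM per kb, followed by C1qa at 30.7 ± 16.5, C1qc at 17.8 ± 9.96 and Serping1 at 14.6 ± 2.6, neighbours whose libraries overlapped, while C3 and the rest were under 1. From E17 on Serping1 led, with no overlap with the next gene. At P60 the order was Serping1 at 264 ± 58.9 CPM per kb, C3 at 113 ± 2.92, C4b at 92.3 ± 5, each apart from the next, and then C1qb at 32.8 ± 6.05, C1qa, C2, C1ra and C1qc, whose neighbours overlapped, with Cfb last at 5.59 ± 1.95. Summed over the 9 genes, CPM went from 137 ± 24.1 at P1 to 1985 ± 196 at P60.

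Side by side, the comparisons between stages called the members as follows. From E13 to E17, C1ra (log2 2.30 ± 0.21), Cfb (1.13 ± 0.48) and Serping1 (1.00 ± 0.21) were called higher and the 3 C1q chains lower (-1.54 ± 0.30 to -1.88 ± 0.30), 3 of 9 each, where 14.2% of the 17700 genes tested were called higher and 21.2% lower. From E17 to P1, C1ra (1.59 ± 0.16) and C2 (1.79 ± 0.58) were called higher and C3 lower (-2.49 ± 0.57), 2 and 1 of 9 where 6.31% of all genes were called higher and 5.41% lower. From P1 to P5, C1ra (1.16 ± 0.15), C2 (1.47 ± 0.48) and C4b (1.16 ± 0.41) were called higher, 3 of 9 against 4.05% of all genes called higher, and that count is the least stable, as it was 1 without P1 library 1 or without P5 library 3 and 5 without P1 library 3 or without P5 library 4.

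From P5 to P14, C1ra, C2, C3, C4b, Cfb and Serping1 were called higher, by 1.05 ± 0.14 (C1ra) to 5.60 ± 0.31 (C4b) on the log2 scale, 6 of 9 against 7.11% of all genes called higher, while the C1q chains differed by -0.03 ± 0.26 to 0.08 ± 0.29. Between P14 and P24, C3, C4b and Cfb (1.36 ± 0.40) were called higher, 3 of 9 against 1.51%. Over the last interval C3 and C4b were called higher, 2 of 9 against 2.55%. Between P1 and P60, 8 of 9 were called higher against 20.3% of all genes called higher, and all 9 had P60 libraries above every P1 library against 30.3% of all genes. The gene not called was C1qb (0.93 ± 0.27), and the other values were 4.63 ± 0.52 for C2, 3.57 ± 0.45 for Cfb, 3.00 ± 0.15 for C1ra, 2.95 ± 0.22 for Serping1, 1.30 ± 0.30 for C1qc and 1.24 ± 0.30 for C1qa. The members were chosen for this course, so nothing is read from these counts.

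Several calls of Cfb, C2, C4b and Serping1 were lost in some or most fits when each of the 8 libraries of a comparison was left out in turn. From E13 to E17 the Cfb call was lost in 7 of the 8 fits, all but that without E17 library 3, at log2 differences of 0.95 to 1.21. The Serping1 call there was lost without E13 library 1 or 2 or E17 library 1 or 3 (0.89 to 0.96) and with DESeq2 (0.96), and without the 3 libraries with the strongest GC relation Cfb was at 0.97. From E17 to P1 the C2 call was lost without E17 library 1, 2 or 3 or P1 library 3 (1.25 to 1.75).

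From P1 to P5 the C2 call was lost in 6 fits, all but those without P1 library 3 or P5 library 4 (1.22 to 1.46), and the C4b call without P1 library 1, 2 or 4 or P5 library 1 or 3 (0.88 to 1.11). The Cfb call from P5 to P14 was lost without P14 library 1 or P5 library 1 or 4 (0.92 to 1.19), and its call from P14 to P24 in 6 fits, all but those without P14 library 1 or P24 library 2 (1.04 to 1.46). No other member call was lost when a single library was left out, and with scaling by library size only C1ra fell under the fold minimum from P1 to P5 (0.96) and from P5 to P14 (0.88).

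Some libraries stood apart within their stage, and the members differed in how far they moved with them. In P24 library 2 the log2 level against the mean of the other 3 libraries was -2.20 for C2, -1.65 for Cfb, -1.45 for C3 and -1.12 for Serping1, but 0.23 for C4b. Over all genes the median deviation of that library was 0.03. The same library was low in Cldn1 (-2.03), a tight junction gene of the perineurium, and in Pcolce2 (-2.30) and Pi16 (-2.49), fibroblast genes found in the epineurium. It was lowest of the stage in all 13 fibroblast and perineurial markers, in 11 of 12 macrophage markers (-0.93 to -0.19) and in 8 of the 9 members, C4b being the exception. The marker lists that deviated most in it were the 4 adipocyte markers, with a median of -4.81, and the 4 tested neutrophil markers, with a median of 3.33, and the 5 red cell markers had a median of 0.94.

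In P60 library 2, C2 was lower by -1.34 and Cfb by -1.14 against the other 3, with Serping1 at -0.52, Cldn1 at -1.76 and Pcolce2 at -1.83, whereas C3 (-0.05), C4b (-0.02), C1ra (-0.04) and the C1q chains (0.12 to 0.40) were not low. The fibroblast and perineurial markers differed among themselves in that library, which was lowest in 9 of 13, with Slc2a1 at -0.19, Itgb4 at -0.28, Lum at 0.05, Col1a1 at 0.28 and Col3a1 at 0.38. Cldn1 itself was 129, 37.7, 151 and 188 CPM in the 4 libraries of P24 and 234, 57.1, 158 and 198 CPM in those of P60. How much of C2, Cfb and Serping1 came from remnants of the outer layers was not tested.

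Without P24 library 2 and P60 library 2, the difference of C2 between P24 and P14 was 1.03 in place of 0.72 on the log2 scale, that of Serping1 0.93 in place of 0.72 and that of C3 4.07 in place of 3.81, and the number of members called was unchanged, at 3 for P24 against P14, at 2 for P60 against P24 and at 8 for P60 against P1. At P1, library 3 was highest in 7 of the 9 members, the exceptions being C1qb and C1qc, and in 7 of the 13 fibroblast and perineurial markers. Without it C4b differed by 11.09 in place of 10.26 between P60 and P1 and by 1.97 in place of 1.16 between P5 and P1, and Cfb by 4.34 in place of 3.57 between P60 and P1. Single libraries also moved C2 from E17 to P1, to 2.41 in place of 1.79 without E17 library 4, and C3 from P5 to P14, to 2.42 in place of 1.74 without P5 library 3. The 3 libraries with the strongest GC relation, E13 1, E13 4 and P1 1, deviated from the others of their stage by a median absolute value of 0.68, 0.62 and 0.31 on the log2 scale over all genes, against at most 0.29 elsewhere. Without these 3, the C1q chains differed between E17 and E13 by -1.57 (C1qa), -1.61 (C1qb) and -1.86 (C1qc), and 5 members were called there.

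**Figure D4:**
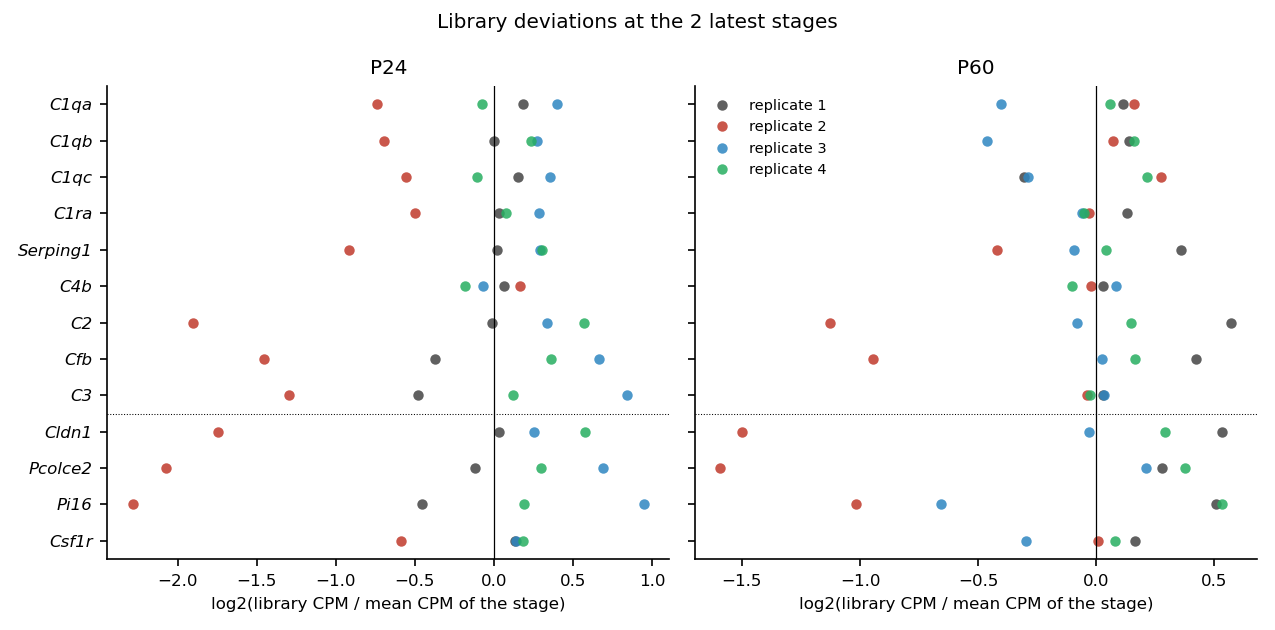
Points give the log2 ratio of each library's CPM to the mean CPM of its stage at P24 (left) and P60 (right), for the 9 members above the dotted line and 4 marker genes below it. Library 2 (red) sits far left for C2, Cfb, Cldn1 and Pcolce2 at both stages, and far left for C3 only at P24.

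The other genes of the complement system were taken from a list of 47, of which 30 were expressed highly enough to be tested. Of these 30, 17 were called higher and 2 lower at P60 than at P1, against 20.3% and 15.2% of all genes, with a median log2 difference of 1.26 against -0.02 over all genes, and 4 were called higher and 12 lower at E17 than at E13, against 14.2% and 21.2% of all genes. In the lectin pathway, where pattern-recognition proteins replace C1q, Masp1, Fcna and Colec11 of 5 tested genes were called higher at P60. Masp1, the pathway's protease, was at 12.8 ± 2.55 CPM at E13, at 0 to 3 reads per library at E17, and at 4.26 ± 0.733 CPM at P60 (log2 5.49 ± 0.55 against P1, edgeR adjusted p = 1.8e-09).

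In the alternative pathway, the factor D gene Cfd had 0, 1, 0 and 2 reads at P1 and 123, 106, 211 and 313 CPM at P60, the groups being far apart. Cfd, the protease that activates factor B, is also an adipocyte gene, and 4 adipocyte markers summed to 0.0621 to 0.219 CPM at P1 and 58.3 to 152 CPM at P60. At P24 Cfd was at 94.3, 3.92, 155 and 77.6 CPM, lowest in the library that was low in Adipoq and in C2. Cfp, which stabilizes the C3-cutting enzyme, was higher at P60 than at P1 by 1.26 ± 0.20 (edgeR adjusted p = 4.7e-06).

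The terminal pathway, which forms the lytic pore, was hardly detected. Hc (C5), C6, C8a, C8b and C9 did not pass the filter on low counts, with at most 11 reads in any library. C7 was at 19.7, 5.51, 1.68 and 1.38 CPM at P60, where library 1 carried most of the mean, and was called higher than at P1 (log2 3.05 ± 0.65, edgeR adjusted p = 0.00021).

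Among 12 tested regulators 9 were called higher and 2 lower (Csmd2 and Csmd3) at P60 than at P1, against 20.3% and 15.2% of all genes. Clu, a fluid-phase inhibitor of the pore, was at 0.656, 1.21, 1.02 and 1.18 CPM at P1 and at 56.6, 56.2, 52.5 and 55.3 CPM at P60 (log2 5.76 ± 0.29, edgeR adjusted p = 1.9e-15). Cd55 (decay-accelerating factor) and Cd59a (which blocks the pore on the membrane) rose by 4.82 ± 0.30 and 3.28 ± 0.14 (edgeR adjusted p = 1.7e-13 and 1e-16). Csmd1, a membrane regulator, rose by 4.26 ± 0.21 (edgeR adjusted p = 6.2e-16), while its relative Csmd2 went from 5.24 ± 0.243 CPM at P1 to 0 to 2 reads per library at P60.

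Between P5 and P14, the interval of the largest C4b step, 6 of the 12 regulators were called higher, against 7.11% of all genes, and Vtn, Cd46 and Susd4, which were higher at P60 than at P1, were not called. In that interval Clu rose by 3.10 ± 0.26, Csmd1 by 2.48 ± 0.19, Cd55 by 2.45 ± 0.27 and Cd59a by 2.07 ± 0.14 on the log2 scale (edgeR adjusted p of 7.7e-10, 1.9e-10, 7.2e-08 and 9.2e-12). In P24 library 2, the library low in C2 and Cfb, Cd55 and Cd59a were highest of the stage at 163 and 309 CPM. Of 6 tested receptors only Itgb2, the shared chain of complement receptors 3 and 4, was called at P60 against P1 (log2 1.05 ± 0.20, edgeR adjusted p = 7.3e-05). The C3a receptor C3ar1 was at 8.5 ± 1.94 CPM at P1 and 9.21 ± 2.42 at P60, a log2 difference of 0.11 ± 0.21 (edgeR adjusted p = 0.65).

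**Figure D5:**
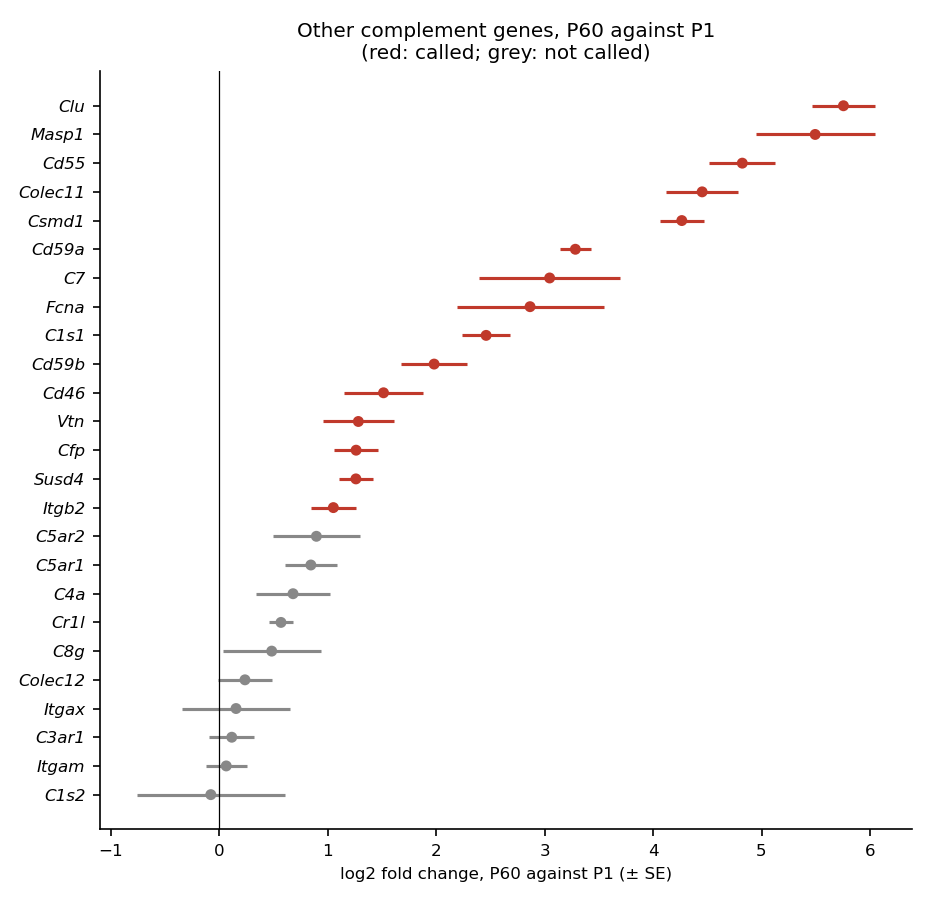
Points give the log2 fold change between P60 and P1 of 25 tested complement genes other than the members, with bars of 1 SE, red where called and grey where not. The 4 genes with 3 or fewer reads in every library of P1 or of P60 are left out (Cfd, Csmd2, Csmd3 and Fcnb), and Clu, Masp1 and Cd55 stand highest of those drawn.

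Genes whose course was most like that of a member were found by the root mean square difference of centred log2 stage means over the 7 stages, among 14104 protein-coding genes. Nearest to C3 were Plk5 (0.90), Inmt (0.99), Retn (1.04), Cyp2e1 (1.11) and Cpxm2 (1.14). The distance is not scaled to the size of a course, and C3 spanned 1520-fold between its highest and lowest stage means. The C3 distances are therefore not comparable with those below, and the other members were not among the genes searched. Nearest to Serping1 were Enpp4 (0.14), Sp100 (0.14), Cebpd (0.17), Tinagl1 (0.17) and Ephx1 (0.20). Nearest to the mean of the C1q chains were Fuca2 (0.12), Evi2a (0.12), Lyl1 (0.12), Zfp612 (0.14) and Gpr183 (0.14).

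Markers of the cells a nerve holds changed as well between P1 and P60. Called higher were 4 of 12 macrophage, 7 of 10 fibroblast, 3 of 3 perineurial, 2 of 5 endothelial, 3 of 6 Schwann cell and 4 of 4 adipocyte markers, and called lower were 1 macrophage, 2 fibroblast, 1 Schwann cell and 4 of 5 red cell markers, against 20.3% of all genes called higher and 15.2% lower. From P5 to P14, where 6 of 9 members were called higher, so were 2 of 3 perineurial markers, Slc2a1 and Itgb4 (log2 1.80 ± 0.23 and 1.33 ± 0.24), and Cldn1 was not called. Called higher there too were 4 of 10 fibroblast, 2 of 4 adipocyte, 1 of 5 endothelial, 1 of 12 macrophage and 1 of 6 Schwann cell markers, against 7.11% of all genes. Called lower there were 1 macrophage and 1 Schwann cell marker, where 869 of 17700 genes were. The 6 neutrophil markers summed to 0.145 to 0.377 CPM at P60. The hepatocyte marker that passed the filter, Apoa2, differed by 0.12 ± 0.85.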

How the data were processed

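RNA of mouse nerves was sequenced as stranded poly-A libraries, single-end, on a HiSeq4000. The authors trimmed the reads, aligned them with STAR 2.6.1c and deposited raw read counts per gene made with featureCounts. The submitters' notes name GRCm38.p5 and the study's methods a human build. The use of strand and the treatment of reads that fit several genes are not given in the sources used here.

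The 9 members and all gene lists were chosen with earlier results of these data known. Identifiers were matched to GENCODE M21 (41519 of 41605). Counts of 17700 genes passing edgeR's filterByExpr were scaled by TMM and fitted over all 28 libraries with edgeR 4.0.16 (R 4.3.3, quasi-likelihood, robust). A gene was called at an adjusted p (Benjamini-Hochberg, all genes tested) under 0.05 and a log2 change of at least 1. Named were the members, the genes of the lists, and for each comparison the called complement genes with the 3 largest rises and falls at 1 CPM or more, others being given by level. Of the list of other complement genes, 1 gene enters the counts and is not reported here. Libraries are separate animals or pools, and the labels do not tie them to litters or days. On simulated counts of P60 against P24, 35 of 100 genes changed 2-fold and 88 of 100 changed 4-fold were called. A 2-fold change lies at the fold minimum, and 64 of those 100 genes passed the adjusted p. There were 5 false calls among 17129 genes, and the simulated levels were means over all libraries. Alternatives comprised DESeq2 1.42.0, other scaling, filters, the replicate number as a block and leaving out libraries. No library was identical to another. Sequences came from GENCODE M21 transcripts and RefSeq promoters (GRCm38.p6).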

Additional observations from a re-analysis of the deposited data

Results flagged for a closer look

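In each stage the gap between the highest or lowest library and its neighbour was compared with the range of the 4 libraries, for the members and the other complement genes named (175 sets of 4 libraries). The gap exceeded Dixon's 95% critical share of the range in 9 sets, and chance gives about 5% of sets. Among the members, C1ra at P60 was at 61.7 CPM in library 1 against 54.0 to 55.1 CPM in the others, and Cfb at P14 was at 8.13 CPM in library 1 against 3.79 to 4.10 CPM. At P14, library 1 was also highest in C2, C3 and Serping1 and in Cldn1 and Pcolce2, and the part of the outer layers in the Cfb value was not tested. Among the other genes, Colec11 at P14 was at 1.60 CPM in library 4 (1.38 to 1.41 in the others) and Csmd1 at P14 at 23.0 CPM in library 3 (22.2 to 22.3 in the others). The remaining sets hold 0 reads in 3 libraries and 1 or 2 reads in the other, namely C7 at P14 (0.113 CPM, library 2), Fcnb at E17 (0.0388 CPM, library 3), at P14 (0.102 CPM, library 1) and at P24 (0.105 CPM, library 2), and Csmd3 at P24 (0.0988 CPM, library 3).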

How the results depend on the processing

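Of 943 recomputed log2 differences of members, 934 moved by less than their spread and 9 by more, and no called difference changed sign. Differences not called could change sign. That of C1qb from E17 to P1 was -0.012, and 0.086 without the 3 libraries with the strongest GC relation. Of 224 recomputed counts of calls, 209 were within 1.5 times the reported count. The members called from P1 to P5 (3) were 0 with scaling by library size only, where the median of all genes shifted by -0.19, 1 with no filter on low counts, 1 without the 3 libraries of E13 and P1 that stood apart, and 6 with no fold minimum. The other complement genes called with no fold minimum were 8 from E17 to P1 (4 reported), 8 from P1 to P5 (5) and 5 from P24 to P60 (3). From P24 to P60 they were 1 when only those stages were fitted, and from P14 to P24 they were 5 by DESeq2 (3). The causes were not tested. In the order of the 7 comparisons, from E13 to E17 to P60 against P1, the counts without 1 library each ranged over 4 to 6, 2 to 3, 1 to 5, 5 to 6, 2 to 3, 2 to 2 and 8 to 9 members and over 15 to 17, 3 to 5, 3 to 6, 9 to 10, 2 to 4, 2 to 4 and 19 to 19 others. From P1 to P5, the others were 3 without P5 library 3. Leaving out libraries that stood apart, at E13 and P1 or at P24 and P60, was chosen after seeing the data.

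The labels do not say that a replicate number marks a shared litter, day or sex, and the correlation of deviations between equally numbered libraries of compared stages ran from -0.059 to 0.292 over 28 pairs, with 12 above 0.1 and no comparison in which all 4 pairs were, so the numbers were not taken to pair the samples. As a hint from the data and not the design, 13 of 28 libraries correlated best with the library of their own number. With the replicate number as a block, 5 members were called from P1 to P5 in place of 3, and no other count moved by over 1.5 times. With 4 libraries a stage and few reads, C4b and C3 before P14 and Cfb at P1 are imprecise.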

Other observations

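Genes of the acute phase response, a set known from liver and inflammation, also differed between P1 and P60, with 5 of 6 tested called higher, against 20.3% of all genes. Serpina3n, a protease inhibitor, went from 0.0987 to 187 CPM (log2 10.81 ± 0.46, edgeR adjusted p = 6e-17), Hp, which binds free hemoglobin, from 0.377 to 36.4 CPM (6.57 ± 0.69, edgeR adjusted p = 4.6e-09) and Lcn2, an iron-carrier binding protein, from 0.214 to 8.09 CPM (5.19 ± 0.51, edgeR adjusted p = 1.1e-09). Saa1 was not called (0.72 ± 0.77). All 6 were called higher at P14 than at P5, against 7.11% of all genes. The 8 acute phase genes summed to 98.9 to 131 CPM at P1 and 601 to 739 CPM at P60.

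Of 8 interferon-responsive genes, all were called higher at P60 than at P1, against 20.3% of all genes. Ifit3 went from 1.59 to 41.9 CPM (log2 4.73 ± 0.28, edgeR adjusted p = 5.9e-14), Gbp2 from 2.82 to 39.3 CPM (3.80 ± 0.18, edgeR adjusted p = 5.7e-16) and B2m, the light chain of MHC class I, from 192 to 621 CPM (1.69 ± 0.11, edgeR adjusted p = 2.5e-13). From P5 to P14, 4 of the 8 were called higher, Ifit1, Ifit3, Irf7 and Gbp2, against 7.11% of all genes. Their sum was 807 to 858 CPM over the P60 libraries.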
